A study of Sus scrofa with 8 samples.

Results

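The genes described here encode splicing factors and RNA-binding hnRNPs, measured in longissimus dorsi, a skeletal muscle that runs along the spine. They are all genes on a porcine Affymetrix array whose symbol begins with HNRNP, HNRP, SRSF, SFRS, SNRP, SF3A, SF3B or U2AF, read from a probe set annotated with exactly 1 symbol. This rule uses names only and gave 47 genes, of 6765 genes named in this way. By symbol they fall into 17 hnRNP genes, 11 SR genes, 10 snRNP genes, 7 SF3 genes and 2 U2AF genes. The study compared Korean native pigs aged 7 months with Yorkshire pigs aged 6 months, with 4 biological replicates per breed and 1 array per replicate. All pigs were raised under the same conditions, per the labels, and no agent or transgene is named for either group. Since the breeds differed in age, effects of breed and of age cannot be told apart here, and the labels give no sex.

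Splicing removes introns from a primary transcript, and it is carried out by the spliceosome, a machine of small nuclear RNAs and proteins that assembles anew on each intron. The small nuclear ribonucleoproteins, or snRNPs, recognise the ends of the intron, and the SF3A and SF3B complexes help one of them, the U2 snRNP, to hold the branch site. U2AF marks the 3' splice site. SR proteins, which carry stretches rich in arginine and serine, mostly favour the use of nearby splice sites. The hnRNPs coat the primary transcript and often act against SR proteins, so the balance between both families helps to set which exons are kept. Muscle uses alternative exons in many of its contractile protein genes.

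Values are signals, the linear intensity of a probe set after a scaling that the authors applied to every array. Each gene is given by its probe set of highest mean log2(signal + 32). The median signal of an array lay between 135.8 and 185.3. The arrays could be told apart by their control probe sets. For housekeeping transcripts the log2 difference of 3' over 5' signal was 3.33 in Korean native pig 1 and 3.03 in Yorkshire 3, and 0.87 to 1.73 on the other 6 arrays. Hybridisation controls were brighter on replicates 1 and 3 of both breeds than on replicates 2 and 4, with lowest and highest means of 13.46 and 13.82 against 12.56 and 12.91 log2 units. Both measures were spread over the breeds (exact permutation test over 70 labellings, two-sided p = 1 and p = 0.657; the smallest possible is 0.0286). Of the 21 skeletal muscle markers listed 17 were named on the array and all 17 were tested, and their summed signal was 772820 to 1209950 in Korean native pigs and 1032700 to 1520040 in Yorkshire pigs. Of the markers of other cells named on the array, 7 of 8 adipocyte, 10 of 11 fibroblast and matrix, 9 of 10 endothelial, 7 of 7 smooth muscle, 3 of 9 leukocyte, 2 of 4 nerve and 3 of 3 red cell genes passed the filter on dim probe sets.

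The muscle of the 2 breeds showed no tested difference in any splicing factor or hnRNP gene. Of the 47 genes, 46 passed the filter on dim probe sets and were tested, and 0 of 46 passed a limma adjusted p of 0.05, the share over all 5331 genes being 0%. At an unadjusted p under 0.05 there were 0 higher and 0 lower in Korean native pigs, where the shares over all genes were 1.74% and 1.69%. At the joint rate of 3.43% a set of 46 genes would hold 1.58, so a count of 0 says little about these genes in particular. In 0 of 46 genes did the signals of the breeds lie apart without overlap, against 2.25% of all genes. The smallest limma adjusted p of the 46 was 0.999.

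Changes are given as Korean native pig minus Yorkshire on the scale of log2(signal + 32), which understates the change of dim genes. Of the 46 genes 23 were above 0 and 23 below, with a median of -0.02, beside 50.4% below 0 and a median of 0.00 (-0.003) over all genes. Changes ran from -0.63 for HNRNPL to 0.46 for SNRPD3. The family medians were 0.06 for hnRNP, -0.03 for SR, -0.11 for snRNP, 0.05 for SF3 and -0.30 for the 2 U2AF genes. With arrays centred on their own median the SR value was 0.04, but the median of all genes moved to 0.07. The sign of the SR value thus depended on where 0 was set, and it lay below that of all genes both times. The other 4 families kept their signs there and under quantile normalisation. Differences between families were not tested. In whole muscle a smaller number of cells of a type and less RNA per cell cannot be told apart.

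The precision was that of 4 arrays per breed, with a median standard error of 0.21 for these genes. In 42 of the 46 the 95% interval of the change stayed within 1 log2 unit of 0, a 2-fold difference, against 75.6% of all genes. The other 4 were HNRNPH2, HNRNPL, SNRPD3 and U2AF2, whose intervals reached beyond it. Only 8 intervals stayed within 0.5, so smaller differences remained within the error.

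**Figure D1:**
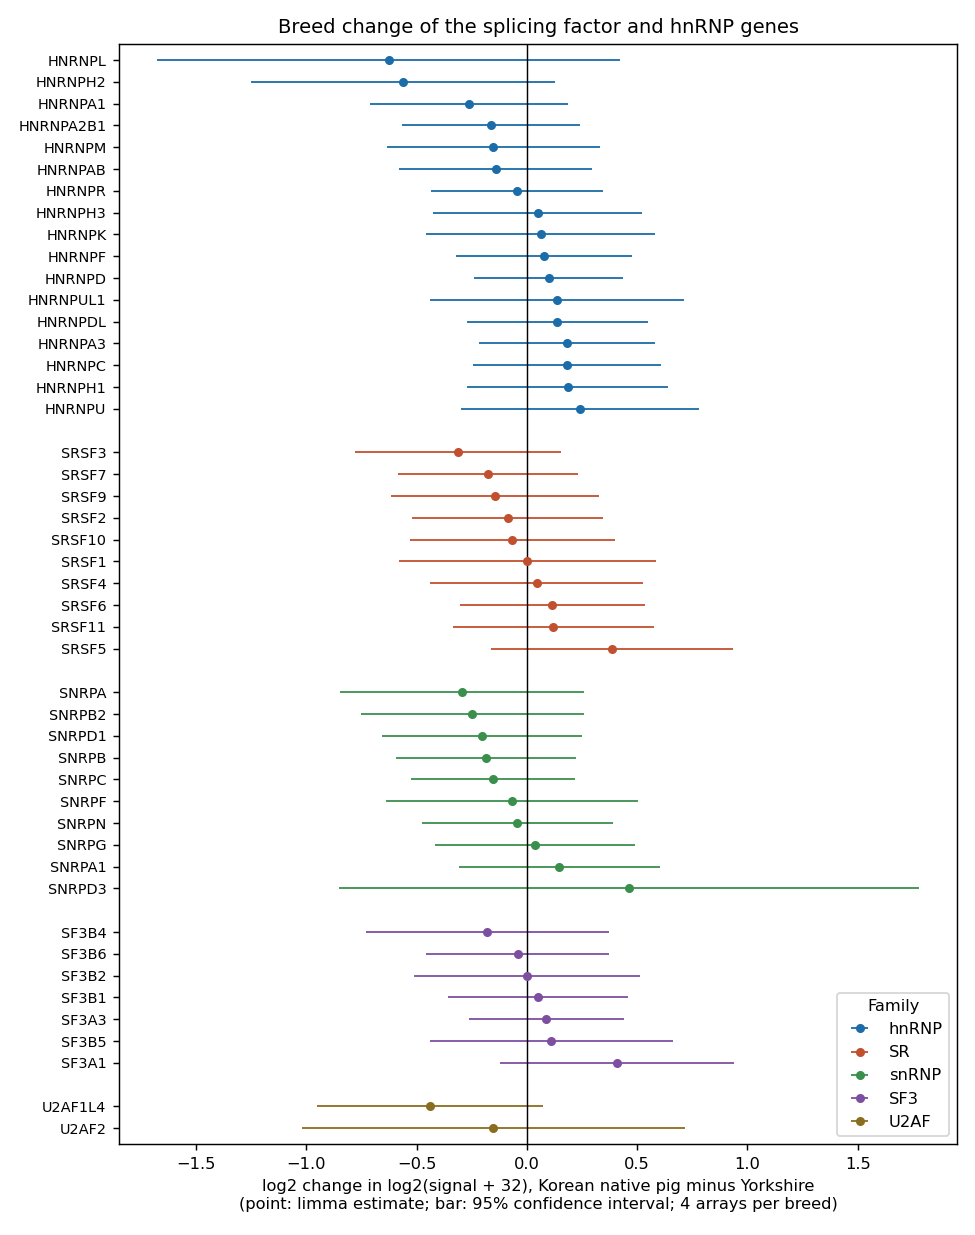
Change of each of the 46 tested genes, Korean native pig minus Yorkshire, on the scale of log2(signal + 32), with points for the limma estimate and bars for the 95% confidence interval (4 arrays per breed), coloured by family. Every interval spans 0, and estimates run from -0.63 (HNRNPL) to 0.46 (SNRPD3).

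Among the 17 hnRNP genes 10 changes were above 0 and 7 below. HNRNPH2, one of the hnRNPs that bind runs of guanine, had signals of 318, 217, 206 and 584 in Korean native pigs 1 to 4 and of 599, 345, 537 and 413 in Yorkshire pigs 1 to 4. Thus 3 Korean native pigs lay below all Yorkshire pigs and the fourth above 3 of them. The change was -0.56 (SE 0.32, 95% interval -1.25 to 0.13). It was -0.85 without Korean native pig 4 (unadjusted p = 0.0103, limma adjusted p = 0.9997). That animal had the highest Korean native signal, so leaving it out enlarges the change by construction. Within the arrays of bright hybridisation controls the change was -1.06, and within the dim ones -0.065. A second HNRNPH2 probe set also had its highest Korean native value in replicate 4, at 308, 68.5, 80.6 and 733 (641, 403, 579 and 229 in Yorkshire pigs), with a change of -0.997 (SE 0.58). In Korean native pigs 2 and 3 the second probe set was below 91.5, the 95th percentile of the negative control probe sets, so its size is uncertain.

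HNRNPL, which binds CA-rich sequence and regulates many alternative exons, varied most among the hnRNP genes. Its signals were 416, 84.8, 316 and 156 in Korean native pigs and 126, 367, 562 and 488 in Yorkshire pigs. Low and high animals occurred in both breeds, and Korean native pig 2 was below the 91.5 of the negative controls. The change of -0.63 had an SE of 0.48 and an interval of -1.68 to 0.42. With each array left out in turn it ran from -0.28 without Korean native pig 2 to -1.04 without Yorkshire 1 (unadjusted p = 0.0352, limma adjusted p = 0.998 for the latter). Yorkshire 1 had the lowest Yorkshire signal, so leaving it out enlarges the change by construction. Taken within the 4 bright arrays alone the change was 0.37, and within the 4 dim ones -1.62. The HNRNPL level was 1.04 log2 units higher in Korean native pig 1 and Yorkshire 3 than on the other arrays. The part of these array measures in the values was not tested.

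HNRNPA1, an abundant hnRNP that often represses exons, was even among Korean native pigs, at 2048, 1887, 1973 and 2006. In Yorkshire pigs it was 2933, 1896, 3088 and 1863, with replicates 1 and 3 high and replicates 2 and 4 within or just beside the Korean native range. The change was -0.26 (SE 0.21, interval -0.71 to 0.19). HNRNPA3, a close relative, was likewise even in Korean native pigs, at 2389.8, 2472, 2515 and 2656. The Yorkshire values of 2252, 1799, 2863 and 2049 lay on both sides of them, and the change was 0.18 (SE 0.18, interval -0.22 to 0.58). HNRNPA2B1, which pairs with HNRNPA1 in the core of hnRNP particles, had signals of 16396, 12829.7, 16349 and 11948 against 18835, 14462, 17583 and 13462. Its groups overlapped widely, with a change of -0.16 (SE 0.19), and 2 further probe sets were at 0.26 and 0.06.

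HNRNPU, a nuclear scaffold protein that binds RNA and chromatin, was the hnRNP gene with the highest change, 0.24 (SE 0.25, interval -0.30 to 0.78). It had signals of 238, 246, 221 and 239.6 in Korean native pigs and 174, 259, 141 and 224 in Yorkshire pigs. Yorkshire 2 was the highest of the 8 and Yorkshire 3 the lowest. HNRNPH1, a relative of HNRNPH2, had 9516, 5553, 9831 and 8914 against 8591, 6786, 6379.9 and 7455. Here 3 Korean native pigs lay above all Yorkshire pigs and Korean native pig 2 below all of them, with a change of 0.18 (SE 0.21). HNRNPC, which binds uridine tracts and sorts transcripts by length, was at 1832, 1832, 1704 and 2261 against 2097, 1838, 1331 and 1505, a change of 0.18 (SE 0.20). Its second probe set was at -0.30. The other 9 hnRNP genes, HNRNPAB, HNRNPD, HNRNPDL, HNRNPF, HNRNPH3, HNRNPK, HNRNPM, HNRNPR and HNRNPUL1, had changes between -0.15 and 0.14. HNRNPD, a protein that also binds AU-rich elements and promotes mRNA decay, was the steadiest of the family, between 4559 and 5816 on all 8 arrays.

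**Figure D2:**
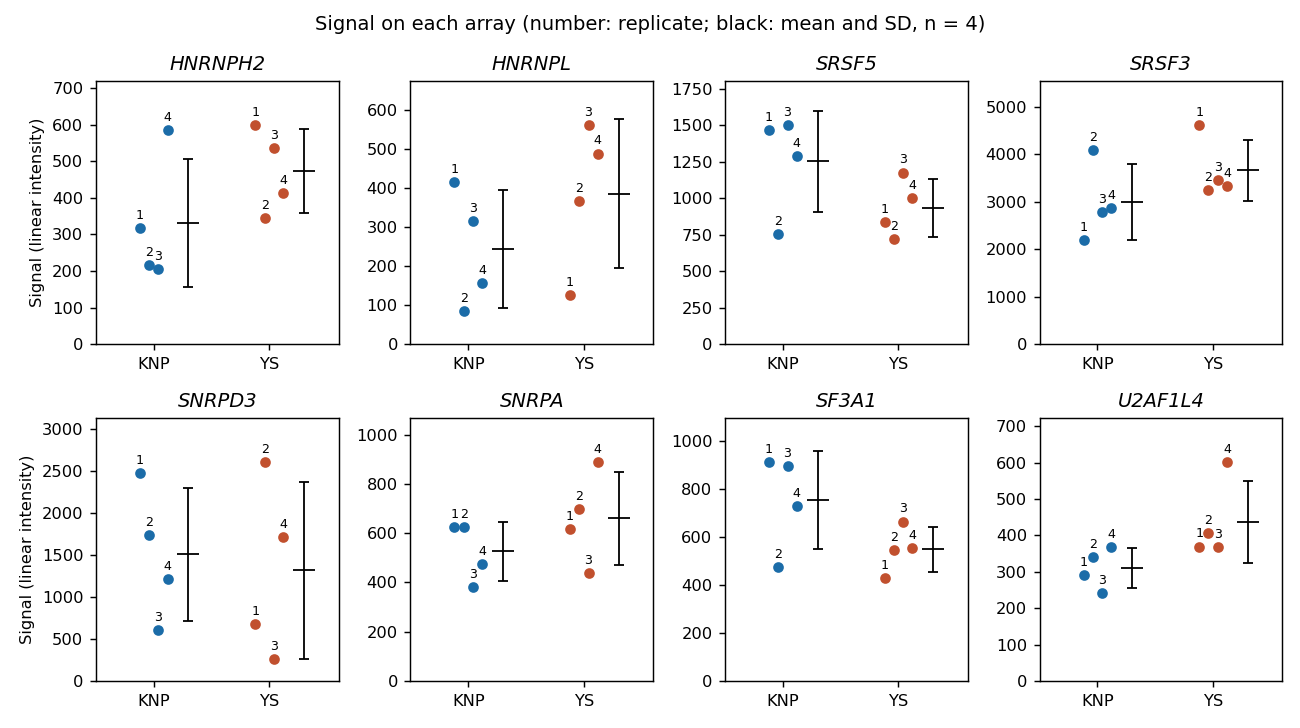
Signal (linear intensity) of 8 of the genes on each array, Korean native pig (KNP) left and Yorkshire (YS) right, with the replicate number beside each point and the mean and SD (n = 4) in black. In every panel the breeds overlap, and HNRNPL and SNRPD3 show the widest spread within a breed.

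Of 11 SR genes 10 were tested, with 5 changes above 0 and 5 below. SRSF5 had signals of 1465, 754, 1503 and 1292 in Korean native pigs and 835, 722, 1177 and 1005 in Yorkshire pigs. It is a classical SR protein whose gene responds to insulin in some cells. Korean native pigs 1, 3 and 4 lay above all Yorkshire pigs, and replicate 2 of either breed was its lowest. The change was 0.39 (SE 0.25, interval -0.16 to 0.93), and it was 0.61 without Korean native pig 2 (unadjusted p = 0.018, limma adjusted p = 0.971). That animal had the lowest Korean native signal, so leaving it out enlarges the change by construction.

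SRSF3, the smallest SR protein, which also takes part in mRNA export, was at 2195, 4094, 2786 and 2878 in Korean native pigs. The Yorkshire values were 4619, 3248, 3457 and 3332. In 3 Korean native pigs SRSF3 lay below all Yorkshire pigs, and Korean native pig 2 was above 3 of them, the reverse of its place for SRSF5. The change was -0.31 (SE 0.21, interval -0.78 to 0.16). Within the arrays of bright hybridisation controls it was -0.69, and within the dim ones 0.06.

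SRSF7, an SR protein with a zinc knuckle that resembles SRSF3, had 1622, 1879, 2017 and 1629 against 2164, 1569, 2025 and 2386. Its change was -0.18 (SE 0.19), and both the lowest and the highest value were from Yorkshire pigs. SRSF9 had 832, 625, 934 and 861 against 984, 709, 786 and 1154, a change of -0.14 (SE 0.22). Replicate 2 was the lowest of either breed for SRSF9 as for SRSF5.

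SRSF1, the founding SR protein and an antagonist of HNRNPA1 in splice site choice, had a change of 0.00 (0.0011; SE 0.27). Its Korean native signals were 2293, 2546, 2677 and 1940.2, and the Yorkshire signals 2179, 1683, 4239 and 1940.2. Yorkshire 3 stood above the other 7 arrays. In a second SRSF1 probe set the same animal had 2183, within the range of 1235 to 2682 of the others, so the high value belonged to 1 probe set. SRSF1 averaged over its 3 probe sets was at -0.21. The second probe set was at -0.06 and the third at -0.56. The third was dim, with signals of 66.8 to 299 and Korean native pig 1 below the 91.5 of the negative controls. The average thus rests largely on a dim probe set. The changes of SRSF2, SRSF4, SRSF6, SRSF10 and SRSF11 lay between -0.09 and 0.12. SRSF12 was not tested, since its signals of 3.52 to 21.1 were all below the 91.5 of the negative controls.

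Of 10 snRNP genes 7 had changes below 0 and 3 above. SNRPA, the U1 snRNP protein that binds a loop of U1 RNA, had signals of 626, 625, 381 and 476 in Korean native pigs and 617, 696, 437 and 891 in Yorkshire pigs. Replicate 3 was the lowest in both breeds, and the ranges overlapped, with a change of -0.29 (SE 0.25, interval -0.85 to 0.26). SNRPB2, its relative in the U2 snRNP, was even in Korean native pigs at 409.7, 490.3, 422 and 430.3. In Yorkshire pigs it ranged more widely, at 343, 578, 691 and 548, and the change was -0.25 (SE 0.23, interval -0.75 to 0.26).

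The Sm proteins form a ring around the small nuclear RNAs, and SNRPB, SNRPD1, SNRPD3, SNRPF and SNRPG encode parts of it. SNRPB was at 1844, 1696, 1813 and 1738 in Korean native pigs and 1783, 1766, 1916 and 2746 in Yorkshire pigs, so that Yorkshire 4 alone stood above a common range. The change was -0.18 (SE 0.19), and -0.04 without Yorkshire 4. SNRPD1 had 1162, 1384, 769 and 1139 against 1219, 1152, 1433 and 1249, with Korean native pig 3 far below the others. Its change of -0.20 (SE 0.21) was -0.04 without that array.

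SNRPD3 varied more than any other of the 46 genes, by 9.8-fold between its lowest and highest array. The Korean native signals were 2474, 1732, 608 and 1212, and the Yorkshire signals 678, 2608, 266 and 1709. High and low animals occurred in both breeds. The change of 0.46 had an SE of 0.60 and an interval of -0.85 to 1.78, and it was -0.11 without Yorkshire 3. Its ring partners did not follow this pattern in size, since the highest and lowest arrays differed by 1.62-fold for SNRPB, 1.86-fold for SNRPD1, 2.21-fold for SNRPF and 1.81-fold for SNRPG. SNRPD3 was 1.22 log2 units lower on the arrays of bright hybridisation controls than on the dim ones, the widest such difference of the 46, and the part of the array measure was not tested. SNRPD3 has 1 probe set on this array, so no other reading of it was at hand.

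SNRPN, which is expressed from the paternal copy and encodes a close relative of SNRPB, had signals of 1152, 1282, 999.6 and 915 against 987, 1368, 1213 and 930.0. Its change was -0.04 (SE 0.20), and 0.03 with arrays centred on their median, where the median of all genes was 0.07. Whether the probe sets of SNRPB and SNRPN tell both transcripts apart was not tested. SNRPC, SNRPA1, SNRPF and SNRPG had changes between -0.15 and 0.15.

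Of the 7 SF3 genes 5 had changes above 0 and 2 below. SF3A1, the largest SF3A subunit, had 914, 473, 897 and 728 in Korean native pigs and 431, 545, 665 and 552 in Yorkshire pigs. Korean native pigs 1, 3 and 4 lay above all Yorkshire pigs, and Korean native pig 2 lay below 3 of them, the same 3 high animals as for SRSF5. The change was 0.41 (SE 0.24, interval -0.12 to 0.94). It was 0.61 without Korean native pig 2 (unadjusted p = 0.019, limma adjusted p = 0.971). That animal had the lowest Korean native signal, so leaving it out enlarges the change by construction. With arrays centred on their median the change was 0.48 (unadjusted p = 0.043, limma adjusted p = 0.994), but centring also moved the median of all genes to 0.07.

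SF3A3, the SF3A subunit that joins the complex to the U2 snRNP, had the lowest spread within breeds of the 46 genes, 0.09 log2 units. Its signals were 1747, 1744, 1825 and 1919.8 against 1564, 1722, 1644 and 1877, a change of 0.09 (SE 0.16). SF3B4 had 280.5, 282, 374 and 329.8 against 245, 384, 333 and 533, a change of -0.18 (SE 0.25), with the lowest and the highest value both from Yorkshire pigs. SF3B5, a small SF3B subunit, was at 1264, 1738, 1024 and 1445 against 1116, 1686, 824 and 1525. In both breeds SF3B5 was lower in replicates 1 and 3 than in 2 and 4, by 0.59 log2 units over the bright against the dim arrays. Its breed change was 0.11 (SE 0.25), or -0.05 without Korean native pig 1 and Yorkshire 3.

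SF3B1, the subunit that encloses the branch site, had signals of 3224, 4226, 3339.7 and 4754 in Korean native pigs and 4187, 3509, 3171 and 4032 in Yorkshire pigs. The ranges overlapped, with Korean native pigs 2 and 4 above all Yorkshire pigs, and the change was 0.05 (SE 0.19). SF3B2 and SF3B6 were at 0.00 (5.05e-05) and -0.04.

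Both U2AF genes had changes below 0, under every setting for U2AF1L4 but not for U2AF2. U2AF1L4, a paralogue of the small U2AF subunit, which contacts the last bases of the intron, had the smallest unadjusted p of the 46 genes, 0.0863. Its signals were 292, 340.2, 242 and 368 in Korean native pigs and 369.6, 406, 368 and 603 in Yorkshire pigs. In this gene 3 Korean native pigs lay below all Yorkshire pigs, and the fourth, at 368, lay among them. The change was -0.44 (SE 0.23, interval -0.95 to 0.07), and over 21 other settings it stayed between -0.52 and -0.28. U2AF2, the large subunit that binds the pyrimidine tract, was at 244, 86.1, 159 and 130.3 against 146, 72.7, 298 and 219. Replicate 2 of both breeds was below the 91.5 of the negative controls, and the change of -0.15 (SE 0.40) was 0.05 when Korean native pig 2 was left out and 0.09 when Yorkshire 3 was.

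The animals are described by how far each gene lay from its own mean, on arrays that had been scaled alike. The median deviation of the 46 genes from their own means lay between -0.07 in Yorkshire 2 and 0.10 in Yorkshire 4. Over all genes tested the medians of these arrays were 0.02 and 0.06. In Yorkshire 4 the signal was the highest of the 8 arrays for 11 of the 46 genes, or 23.9%, where 19.6% of all genes were highest. Yorkshire 3 was the lowest for 10 genes, or 21.7%, against 14.3% of all genes. In Yorkshire 4 the median was below 0 for hnRNP genes, at -0.16, and above 0 for the others, at 0.08 for SR, 0.17 for snRNP, 0.10 for SF3 and 0.55 for the 2 U2AF genes. In Yorkshire 2 it was above 0 for snRNP genes, at 0.10, and below 0 for the others, at -0.12 for hnRNP, -0.18 for SR, -0.02 for SF3 and -0.35 for U2AF. Differences between families on an array were not tested.

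**Figure D3:**
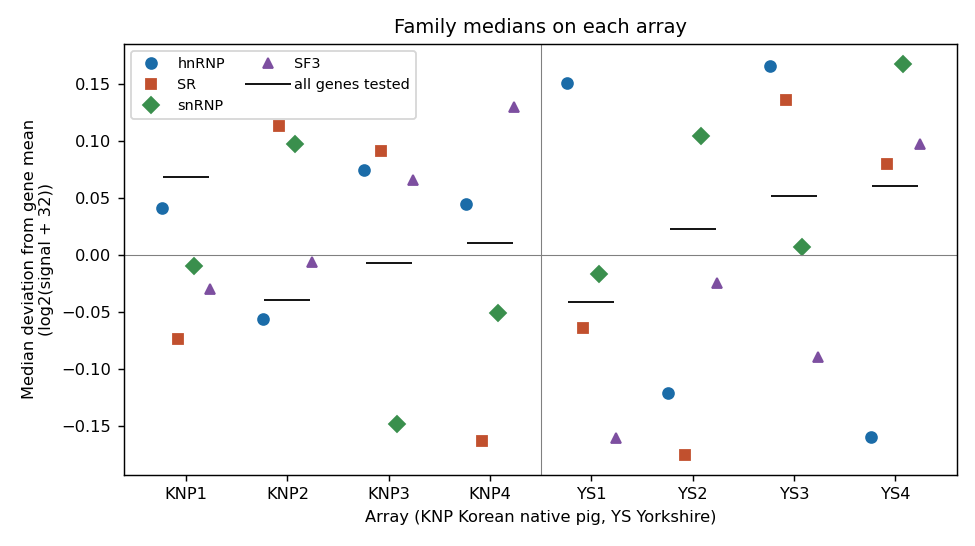
Median deviation of the members of 4 families from their own 8-array means, in log2(signal + 32), on each array (KNP Korean native pig, YS Yorkshire), with black dashes for all 5331 genes tested. No family lies on one side of 0 in all animals of a breed, and in Yorkshire 4 the hnRNP median is -0.16 and the snRNP median 0.17.

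Variation shared from animal to animal is given by correlations. After each breed was centred on its own mean, the median correlation between 2 of the 46 genes over the 8 arrays was 0.01, and between 2 of all genes it was also 0.01. It is a description of 8 arrays that share their scaling. Within families the median correlation was 0.03 for hnRNP, 0.08 for SR, 0.11 for snRNP and 0.27 for the 7 SF3 genes. Between families it ran from -0.12 for hnRNP with snRNP genes to 0.15 for snRNP with SF3 genes. The spread within breeds had a median of 0.28 log2 units over the 46 genes and 0.36 over all genes, and 36 of the 46 were below the median gene. These genes were also bright, since 38 of 46 exceeded the median gene in mean log2 signal, and genes brighter than the median gene had a median spread of 0.30.

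**Figure D4:**
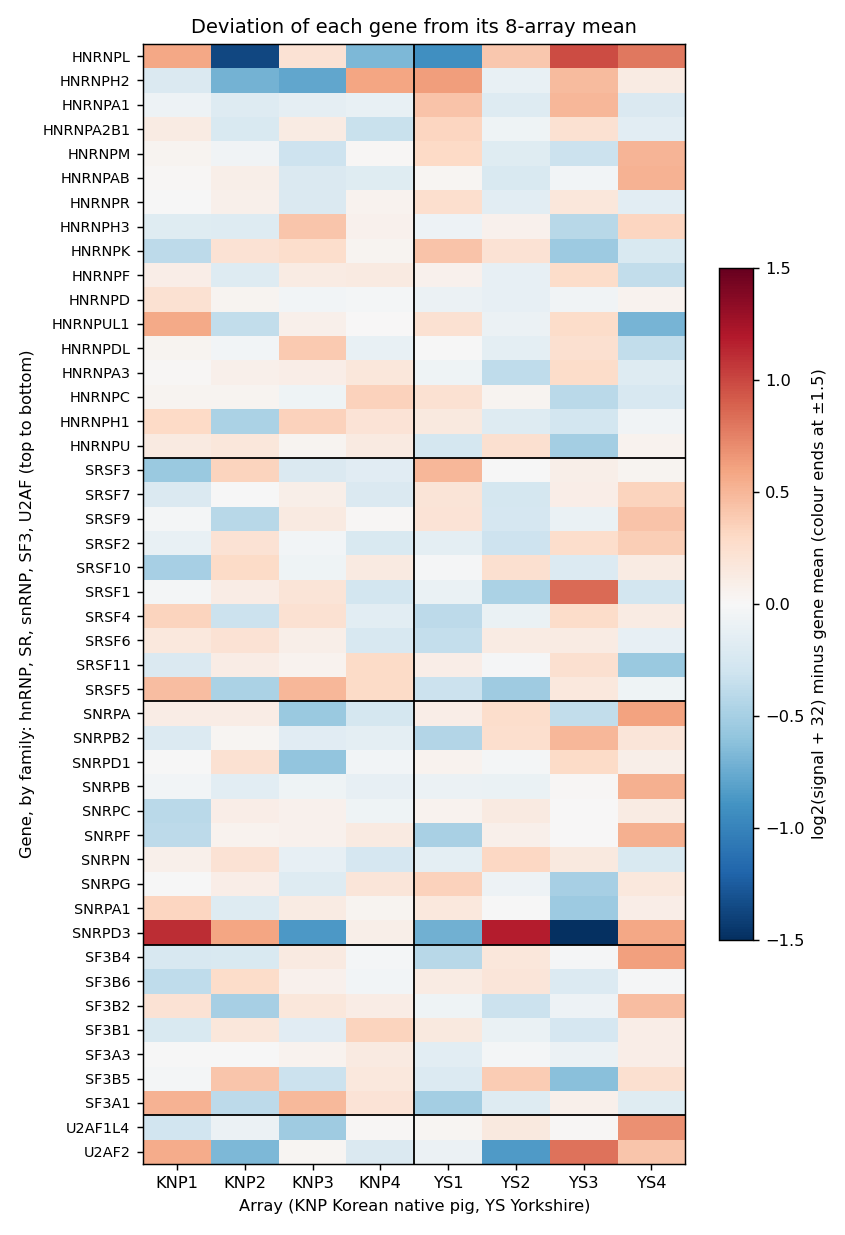
Deviation of each of the 46 genes (rows, by family) from its mean over the 8 arrays (columns), in log2(signal + 32), red above and blue below, with colours ending at 1.5 in either direction. HNRNPL and SNRPD3 have the strongest colours, in both breeds, and no block of a family is coloured alike across the animals of a breed.

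Some families differed in level between the arrays of bright and of dim hybridisation controls. The bright arrays are replicates 1 and 3 and the dim ones 2 and 4, so brightness and replicate number cannot be told apart. All genes share these arrays, so the counts below are a description. On the bright arrays 9 of 10 snRNP genes were lower than on the dim ones, with a median of -0.15, beside 49.1% and a median of 0.01 over all genes. Of the SF3 genes 5 of 7 were lower there, with a median of -0.20. By contrast 6 of 17 hnRNP and 3 of 10 SR genes were lower, with medians of 0.09 and 0.09. The bright and dim arrays were 2 and 2 in each breed. With this measure as a block, 0 of 46 genes passed a limma adjusted p of 0.05 for breed. At an unadjusted p under 0.05 there were 0, and the share of all genes with this block is not given. The arrays of high 3' to 5' ratio, Korean native pig 1 and Yorkshire 3, are both bright ones. Against the other 6 arrays 7 of 10 snRNP and 5 of 7 SF3 genes were lower on them, with medians of -0.16 and -0.17, and 6 of 17 hnRNP and 4 of 10 SR genes, with medians of 0.12 and 0.06. Over all genes 41.8% were lower there, with a median of 0.07. Neither the part of the hybridisation controls nor that of the 3' to 5' ratio was tested.

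Of the 46 genes 16 had more than 1 tested probe set. By limma 0 of the 72 tested probe sets passed, as did 0 of all 14399. At an unadjusted p under 0.05 there were 0 of the 72. The share over all probe sets is not given, and over all genes, each by its brightest probe set, it was 3.43%. In 4 of the 16 genes the probe sets had changes of the same sign, and in 12 the signs were mixed. The counts of genes above and below 0 in each family rest on the brightest probe set alone. SRSF6, an SR protein, had 6 probe sets with changes from -0.32 to 0.36, and SRSF10, an SR protein that represses splicing when it loses its phosphates, had 4 from -0.43 to 0.51.

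Some of these probe sets were apart on the 2 arrays of high 3' to 5' ratio, Korean native pig 1 and Yorkshire 3. Spike control transcripts also had their highest log2 difference of 3' over 5' signal on these arrays. It was 3.63 and 2.50 there and 0.86 to 1.82 on the other 6. Whether the ratio came from the RNA of the animals or from the handling of the arrays was not tested. A second SF3B1 probe set had 213 and 459 on these 2 arrays and 544 to 1088 on the other 6. This was a difference of -1.26, where the brightest SF3B1 probe set was at -0.31. Of the HNRNPA2B1 probe sets the dimmest had 229 and 190.1 there and 338 to 671 elsewhere, a difference of -1.02, against 0.23 for the brightest. Others went the other way, and an SRSF6 probe set had 499 and 487 there and 141 to 359 elsewhere, a difference of 0.91. Further probe sets are by rule dimmer than the one that stands for the gene, so both kinds are not compared here. Among those that stand for a gene, the probe set of HNRNPL was at 1.04 and that of U2AF2 at 0.91. The probe sets that stand for a gene were thus not free of such differences, and the share over all probe sets is not given. The positions of the probe sets in their transcripts were not used here.

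**Figure D5:**
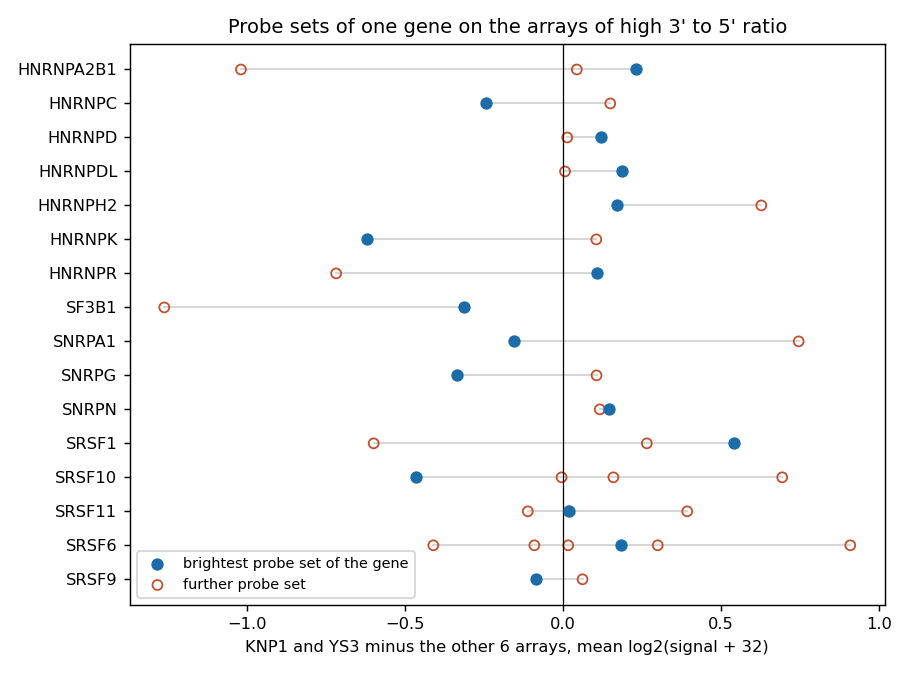
Difference between Korean native pig 1 and Yorkshire 3 and the other 6 arrays, in mean log2(signal + 32), for each tested probe set of the 16 genes with several, filled for the brightest probe set and open for the others. The lowest open points are those of SF3B1 (-1.26) and HNRNPA2B1 (-1.02), while the filled points of these genes lie at -0.31 and 0.23.

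Other genes of splicing gave a similar picture. From lists of spliceosome factors, the exon junction complex, SR protein kinases with SR-related proteins and other splicing regulators, 83 genes were tested. Of these 48 had changes above 0 and 35 below, with a median of 0.03, and 0 passed by limma. At an unadjusted p under 0.05 there were 2, both above 0, or 2.41%. PCBP2, also known as hnRNP E2, which binds cytosine tracts, had 11340.4, 14441, 8652 and 10853 in Korean native pigs and 8788, 5734, 6419.6 and 7177 in Yorkshire pigs. Only Korean native pig 3 and Yorkshire 1 overlapped, and the change was 0.68 (SE 0.20, unadjusted p = 0.00582, limma adjusted p = 0.999). TRA2A, an SR-related activator of exons, had 1390.2, 1133, 1331 and 1400.2 against 1016, 885, 1138 and 678. Only Korean native pig 2 and Yorkshire 3 overlapped, with a change of 0.50 (SE 0.20, unadjusted p = 0.0279, limma adjusted p = 0.999).

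In the spliceosome list 19 of 32 genes were above 0, among them PRPF38A at 0.55 and SNRNP48, of the minor spliceosome, at 0.48. Of 11 genes of the exon junction complex 5 were above 0, with MAGOH, one of its core proteins, at 0.28 and UPF3A at -0.50. Of 15 kinases and SR-related proteins 9 were above 0, with CLK3, a kinase of SR proteins, at 0.35. The other regulators had 15 of 25 above 0, including KHDRBS3 at 0.63. In Yorkshire pigs 2 and 3 KHDRBS3 had 70.2 and 43.8, below the 91.5 of the negative controls.

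Markers of other cells in the muscle are given for the same comparison. The fibroblast and matrix list had 10 of 10 tested genes below 0 with a median of -0.35. The adipocyte list had 6 of 7 below 0 with -0.52 and the skeletal muscle list 16 of 17 with -0.30. The endothelial list had 3 of 9 below 0 with a median of 0.02 and the smooth muscle list 3 of 7 with 0.09. The leukocyte list had 0 of 3 below 0 with a median of 0.11, the red cell list 1 of 3 with 0.07 and the nerve list 1 of 2 with 0.43. By limma 0 of these genes passed, and 2 were at an unadjusted p under 0.05, EGFL7, of endothelial cells, at -0.62 and MBP, of myelin, at 1.03. MBP had 553, 548, 1159 and 1187 in Korean native pigs and 461, 457, 189 and 491 in Yorkshire pigs, and was the only tested marker whose breeds did not overlap. The other tested nerve marker, S100B, was at -0.17. Over all genes 2.25% did not overlap and 3.43% were at an unadjusted p under 0.05. Whether the share of other cells bears on the splicing genes was not tested.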

How the data were processed

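The deposited table gives a linear intensity for 24123 probe sets, with a column for each array. The submitters' processing notes name GCOS 1.3, without its role. The summarisation of probes and the genome build were not stated, and no coordinates are printed. The mean of each array, trimmed by 2% at either end, was 500.1 to 500.2, so the values had been scaled per array and every change is relative to the other probe sets. No 2 arrays were identical.

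Gene names came from GEO's platform annotation, which can be old. All 47 genes were found by gene number in the table of the Sscrofa11.1 assembly, with 0 symbols changed. SRSF12 was below the filter.

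Values were transformed to log2(signal + 32). The 124 control probe sets and the dimmest 40% of the rest were left out, which left 14399 probe sets. With R 4.3.3 and limma 3.58.1, lmFit and eBayes with trend were run on the 8 arrays without covariates. Benjamini-Hochberg adjustment was over all these probe sets, and counts over genes use the adjusted values. The fit was tested on simulated data. Precision is limited by having 4 arrays per breed. The labels call the replicates biological.

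By rule, values in every array are given for members past the threshold, members without overlap, and the 4 members of smallest p in each family. Of each further splicing list the 2 genes of smallest p are named, with their change. HNRNPA2B1, HNRNPC, HNRNPH1, HNRNPU, SF3B1, SNRPD3, SNRPN and SRSF1, genes placed in ranges, and the markers named were chosen after their values were seen. The members and lists were chosen with earlier results of these data known. The alternatives were 2 pseudocounts, 2 filters, 2 normalisations, no trend, averaged probe sets, 2 blocks, subsets of arrays and each array left out.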

Additional observations from a re-analysis of the deposited data

Results flagged for a closer look

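In 3 of 92 sets of 4 log2 signals (46 genes in 2 breeds) the gap between 1 animal and the nearest other of its breed, divided by the range of the 4, was above Dixon's 95% critical value for 4 samples. Chance marks about 1 set in 20. HNRNPF was 4261 in Korean native pig 2 and 5206 to 5352 in the other Korean native pigs (gap 0.878 of the range). SF3B2 was 596 in the same animal and 925 to 995 in the others (gap 0.857). SNRPF was 217 in Korean native pig 1 and 305 to 325 in the others (gap 0.841).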

How the results depend on the processing

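By limma 0 members passed under any of the 21 alternatives. At an unadjusted p under 0.05 there were 0 to 3 with each array left out. The 3 were SRSF3, SRSF5 and SF3A1 without Korean native pig 2. For each of them that animal lay farthest towards the Yorkshire side, so leaving it out enlarges the change. There was 1 with arrays centred on their median (SF3A1), 1 within the bright arrays (HNRNPH2, -1.06) and 1 within the dim arrays (HNRNPL), and 0 under the rest. In the main fit 3.43% of all genes were under 0.05. The shares under these alternatives are not given, so these counts cannot be read as a result about these genes. The median of the 46 genes was 0.055 with arrays centred and -0.078 (without Yorkshire 3) to 0.0065 with each array left out, and the SF3 median was 0.17 within the bright arrays. Centring shifted the median of all genes to 0.07, from 0.00 (-0.003). The causes were not tested.

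Among named genes the sign changed as follows. Within the bright arrays HNRNPL was 0.37, HNRNPA3 -0.050, SRSF9 0.00 (0.0038), SF3B4 0.17, SRSF1 -0.29 and SF3B1 -0.15. Within the dim arrays HNRNPA1 was 0.049, SRSF3 0.061, SNRPD1 0.064, SF3B5 -0.017, SNRPD3 -0.53 and HNRNPH1 -0.015. Averaging probe sets gave HNRNPA2B1 0.053, HNRNPC -0.058, SRSF1 -0.21 and SF3B1 -0.050. Without the arrays of high 3' to 5' ratio SF3B5 was -0.051 and SNRPD3 -0.41. SRSF1 was -0.019 with quantile normalisation and SNRPN 0.033 with arrays centred. With each array left out the ranges that crossed 0 were -0.080 to 0.25 for SF3B5, -0.46 to 0.093 for U2AF2, -0.16 to 0.28 for SRSF1, -0.13 to 0.055 for SNRPN, -0.052 to 0.13 for SF3B1 and -0.11 to 0.93 for SNRPD3.

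Same-numbered arrays of both breeds deviated together only in part (correlations -0.04, 0.31, 0.10 and 0.05 for numbers 1 to 4), and the main fit did not pair them. They did share the brightness of their hybridisation controls, bright for numbers 1 and 3 and dim for 2 and 4. Korean native pig 1 correlated best with Yorkshire 3. With the replicate block 0 members and 1 of 5331 genes passed, against 0 without it. Signals near 91.5 (HNRNPL, U2AF2) limit what can be read.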
